A study of Rattus norvegicus with 4 samples.

Results

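The array used for this series carries 117 probes designed to curated noncoding RNA records of RefSeq, the records whose accession starts with NR_, among 45598 probes that are not controls. They were chosen by that accession prefix alone, and predicted noncoding records (XR_) were left out. Of the 117 probes, 115 were measured on every array, under 92 names. The other 2 probes, to LOC102548399 and LOC102550325, were lost because the scanning software marked their spot as an outlier on 1 array each. LOC102548399 read 3.07, 3.47, 3.30 and 236.3 on replicates 1 to 4, the last being the marked spot, and LOC102550325 read 9.96, 6.83, 152.5 and 120.3, marked on replicate 3. A total of 86 of the 92 names came from a RefSeq symbol, and 6 accessions with 7 probes matched none and are given by accession.

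Total RNA came from NR8383, a rat alveolar macrophage line established from cells washed out of a normal lung, which grows partly attached and partly floating. The series has 1 group of 4 biological replicates, cells held for 4 h in DMEM medium with 10% fetal bovine serum, and no second condition, so no treatment was compared. The labels also carry the letters ALI, which they do not spell out. Before that the cells, past 20 passages, had been kept with 15% heat-inactivated serum and left for 48 h after seeding (25 cm2 flasks). Each array received the Cy3-labelled product of 100 ng of RNA, whose integrity number exceeded 7.5. All 4 arrays sat on 1 slide and were read in 1 scan, so replicate and array position cannot be told apart.

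Noncoding RNAs fall into families with very different lives. Ribosomal RNA, the RNA of the signal recognition particle and the RNA of RNase P or RNase MRP are structural parts of large complexes that make proteins, deliver them to the endoplasmic reticulum or cut other RNAs. Long noncoding RNAs are spliced transcripts that resemble messages but encode no long protein, and several of them serve as hosts whose introns release small nucleolar RNAs (snoRNAs), the guides for chemical modification of ribosomal RNA. Many mammalian snoRNA hosts start at a run of pyrimidines, a feature they share with ribosomal protein genes.

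In the RefSeq annotation of the rat genome, 7 of the named noncoding genes on the array hold at least 1 annotated snoRNA gene within their locus, and all 7 were detected on every array. They are Gas5, LOC100912041, LOC100911177, LOC102549726, LOC100909675, LOC100909539 and Dancr. The sequence around the annotated start is shown for the 6 with a RefSeq promoter entry, since each of these genes was detected. Each sequence runs from 60 bases before the start to 50 bases after it, on the strand of the gene, in build GRCr8. Capitals mark TATAAA, its form on the opposite strand (TTTATA) or TATATA between 60 and 15 bases before the start, and runs of at least 8 pyrimidines (C or T) near the start.
Gas5: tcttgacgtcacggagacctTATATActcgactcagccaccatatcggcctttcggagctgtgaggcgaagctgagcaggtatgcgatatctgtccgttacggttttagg
LOC100912041: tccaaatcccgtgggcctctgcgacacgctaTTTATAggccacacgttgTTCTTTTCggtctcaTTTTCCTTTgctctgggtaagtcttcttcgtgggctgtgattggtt
LOC100911177: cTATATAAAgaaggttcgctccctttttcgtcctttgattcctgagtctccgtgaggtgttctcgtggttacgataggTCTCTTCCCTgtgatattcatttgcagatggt
LOC102549726: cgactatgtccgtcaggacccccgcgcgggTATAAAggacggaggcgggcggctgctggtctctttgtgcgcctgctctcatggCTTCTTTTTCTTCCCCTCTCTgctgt
LOC100909675: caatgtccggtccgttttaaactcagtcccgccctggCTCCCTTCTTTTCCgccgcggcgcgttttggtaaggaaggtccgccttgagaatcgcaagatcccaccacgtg
Dancr: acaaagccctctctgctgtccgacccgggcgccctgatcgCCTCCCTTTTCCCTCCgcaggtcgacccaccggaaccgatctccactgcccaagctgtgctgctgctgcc
These windows lie at chr13:75836903-75837012 (Gas5, plus strand), chr1:215048275-215048384 (LOC100912041, plus strand), chr3:176211270-176211379 (LOC100911177, plus strand), chr20:3881148-3881257 (LOC102549726, plus strand), chr4:12184154-12184263 (LOC100909675, minus strand) and chr14:34481983-34482092 (Dancr, minus strand).

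A probe was called detected when the software flagged the majority of its spots as well above background on all 4 arrays. By that call 46 of the 115 noncoding probes were detected, which is 40% (95% Wilson interval 31.5% to 49.1%, counting error only) against 40.3% of all 45280 measured probes. A further 18 probes passed on 1 to 3 arrays (15.7%, all probes 15.4%) and 51 on no array (44.3%, all probes 44.4%). By probe, the noncoding share therefore sat at the level of the whole array. It was 12.7 percentage points under the 52.7% of curated coding records (NM_), and predicted noncoding records (XR_) stood at 14.3%. With the software's looser flag, for spots that are positive and significant, 64 noncoding probes passed on all arrays (55.7%), beside 57.1% of all probes, 66.5% of curated coding and 34.4% of predicted noncoding records. Counted by name, 37 of 92 noncoding names had a detected probe. Of the 86 names with a RefSeq symbol 34 did (39.5%), which was below the 53.1% of all named genes.

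The only test the single group allows is whether a probe's mean log2 signal lay above the 95th percentile of negative control spots. With limma and Benjamini-Hochberg adjustment over all probes (one-sided), 67 noncoding probes passed at 0.05, or 58.3% against 60.6% of all probes, 69.2% of curated coding and 39% of predicted noncoding records. They comprised all 46 detected probes, 16 of the 18 detected on 1 to 3 arrays and 5 of the 51 detected on none. The 2 partly detected probes that failed were Lnc134 (adjusted p = 0.134) and Rps4x-ps1 (adjusted p = 0.0719). The 5 undetected probes that passed were Abhd11-as1, Miat, Igh-6l1, LOC100909680 and LOC100910945, with limma adjusted p between 0.00233 and 0.0473. Signals of the 51 undetected probes spanned 1.92 to 13.7, where the 95th percentile of negative controls was 3.07 to 3.60 and the faintest probe well above background read 9.17 to 13.2, depending on the array.

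Detection is described by counts per class, without a test. All 7 probes to structural RNAs and all 3 to Gas5, Snhg4 and Dancr were detected, as were 2 of 3 antisense probes, 11 of 22 pseudogene probes and 15 of 40 probes to uncharacterized records. Of 16 probes to other named long noncoding RNAs 2 were detected, of 4 to imprinted transcripts 1, and of 12 to noncoding transcripts filed under a coding gene's name 1. The single probe to Terc, the template RNA of telomerase, was not detected. Of the 7 probes to unmatched accessions 4 were detected.

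Among the structural RNAs, Rn45s is the ribosomal RNA precursor, from which the small-subunit RNA (Rn18s) and a short large-subunit RNA (Rn5-8s) are cut. The processed signals of the 3 Rn45s probes on replicates 1 to 4 were 381720, 296130, 327450 and 319690 for A_44_P1112711, 249380, 226280, 258420 and 198390 for A_44_P186336, and 94233, 92117, 118510 and 114670 for A_44_P1090387. The Rn18s probe read 2003, 2456, 2658 and 1562, and the Rn5-8s probe 405, 742, 691 and 772. Without probe sequences, whether an Rn45s probe reports the precursor or an RNA cut from it cannot be told. These signals therefore do not compare the amounts of the precursor and of those RNAs. Replicate 4 was lowest for Rn18s and for A_44_P186336, and replicate 1 lowest for Rn5-8s. No spot was saturated.

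Rn7sl1 encodes the RNA core of the signal recognition particle, which brings ribosomes making secreted proteins to the endoplasmic reticulum. Its probe read 4270, 5592, 5956 and 5649. The probe filed under Rpph1, the catalytic RNA of the tRNA-processing enzyme RNase P, read 3109, 3829, 4168 and 4230. RefSeq lists that gene under the symbol Rpph1 but with the biotype of RNase MRP RNA and the synonym Rmrp, and it overlaps the coding gene Parp2, so which of these RNAs the probe reports cannot be told. The labels do not name the primer used for labelling, and how far a signal follows the amount of an RNA without a poly(A) tail was not tested.

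The brightness of the arrays differed: the 75th percentile signal was 83.4, 112, 126.4 and 167.3 on replicates 1 to 4, a ratio of 2.01 between replicates 4 and 1. Levels are therefore given as log2 signal minus the array's own 75th percentile. On that scale all 7 structural probes were lowest on replicate 4, against 31% of all 18229 detected probes, and 6 of 7, all but Rn5-8s, were highest on replicate 1, against 40.3%. Their level on replicate 4 minus that on replicate 1 had a median of -0.72 and ran from -1.36 to -0.07, against a median of -0.08 over all detected probes. Before scaling, the same difference had a median of 0.28 against 0.93 for all detected probes, so their signal differed less between these arrays than that of the array as a whole, and the sign depends on the scaling. The grouping was made after the values were seen, and it carries no test.

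Rn18s spread most of all detected noncoding probes, with a level of 4.16 ± 0.63 (SD, n = 4 arrays). Its levels were 4.59, 4.46 and 4.39 on replicates 1 to 3 and 3.22 on replicate 4. Rpph1 had a level of 5.00 ± 0.24, Rn7sl1 of 5.49 ± 0.28 and Rn5-8s of 2.42 ± 0.23 (SD, n = 4). The Rn45s probes had SDs of 0.52, 0.55 and 0.30 in the order given above.

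Gas5, a growth-arrest transcript whose introns carry several snoRNAs, was detected on all 4 arrays. Its 10-spot probe read 2514, 5656, 7108 and 9327, and its level was 4.91, 5.66, 5.81 and 5.80. Replicate 1 stood below the other arrays, which lay between 5.66 and 5.81. The SD between arrays was 0.43, which is 6.39 times the median SD between the spots of that probe within an array (0.07). The standard error of the mean of those spots ran from 0.02 to 0.03. RefSeq places Snord78, Snord81 and further snoRNA genes within this locus.

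LOC102549726, whose locus holds Snord48 and Snord52, was also lowest on replicate 1. Its 10-spot probe read 634, 1799, 1812 and 2317, with levels of 2.93, 4.01, 3.84 and 3.79. The array SD of 0.49 was 5.58 times the spot SD, and the standard error of the spot mean ran from 0.02 to 0.05. Snord genes encode box C/D guides for 2'-O-methylation of RNA.

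LOC100912041 holds Snord26, Snord27, Snord28b and Snord30 and lies next to Slc3a2, the gene of an amino acid transporter heavy chain. Its probe read 583, 1012, 1137 and 1998, with an array SD 2.34 times the spot SD. LOC100911177, which holds Snord12 and Snord12c and lies next to Znfx1, read 707, 1090, 1312 and 1702, and the ratio of SDs was 1.56. The SDs between arrays were 0.31 for LOC100912041 and 0.13 for LOC100911177. Each level is a mean of 8 to 10 spots. The standard error of that mean ran from 0.03 to 0.05 for LOC100912041 and from 0.02 to 0.06 for LOC100911177. For both, unscaled signal was lowest on replicate 1 and highest on replicate 4, as it was for all 7 detected probes of snoRNA loci. Over all detected probes, unscaled signal was lowest on replicate 1 in 73.8% and highest on replicate 4 in 85.2%, so this order is that of the array as a whole.

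LOC100909675, which holds Snord93 and neighbours Tomm7, a subunit of the mitochondrial import complex, read 692, 972, 1195 and 1785. The SD of its level between arrays was 0.16, and the SD between its spots within an array ran from 0.11 to 0.33. The level is a mean of 8 to 10 spots, and the standard error of that mean ran from 0.03 to 0.10. LOC100909539, which holds Snord123, had 1 detected probe that read 14.3, 18.2, 21.1 and 31.8 and a second that stayed between 2.71 and 4.04. Dancr, known from human cells as a transcript that restrains differentiation, read 109, 115, 115 and 169.

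After scaling, 5 of these 7 probes were lowest on replicate 1 (33.2% of all detected probes) and 0 were lowest on replicate 4 (31%). The exceptions were LOC100909539, lowest on replicate 2, and Dancr, which was highest on replicate 1 and lowest on replicate 3. The level on replicate 4 minus that on replicate 1 had a median of 0.36 and ran from -0.37 for Dancr to 0.89. Snhg4, a host transcript by name for which RefSeq lists no snoRNA inside the locus used here, read 313, 619, 738 and 1023. It too was lowest on replicate 1, at a level of 1.91 against 2.47, 2.54 and 2.61. Its locus overlaps Matr3, a coding gene for a nuclear matrix protein, and without probe sequences the signals of the pair cannot be told apart.

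Of the 86 named noncoding genes, the 7 with a snoRNA gene inside were all detected, and 27 of the 79 without one were (34.2%). These sets also differ in their probes. Gas5, LOC100912041, LOC100911177, LOC102549726 and LOC100909675 had probes printed 10 times, and otherwise only a Meg3 probe was. LOC100909539 counted as detected through 1 dim probe of its 2. Over every named gene on the array 8772 of 16506 were detected (53.1%), and among the 322 with a snoRNA inside 226 were (70.2%). Among 459 genes of lncRNA biotype, 75 were detected (16.3%), and among the 8 of these with a snoRNA inside 7 were (87.5%). Those 7 are the same 7 noncoding genes, so this share is not a separate comparison. The sets overlap and the genes are not independent, so these shares are descriptions.

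The letters shown above were also counted in other promoters. The motifs were chosen after the sequences had been seen, so the counts are descriptions. RefSeq promoters, from 250 bases before to 50 after the start, were at hand for 55 noncoding genes. A TATAAA on either strand or a TATATA in the stated window occurred in 4.33% of 27457 promoters, 1 per gene, in 7 of 19 detected noncoding genes (36.8%), and in 2 of 36 not detected on all arrays (5.56%). Beside Gas5, LOC100912041, LOC100911177 and LOC102549726, the detected genes with such letters were Meg3, LOC100910973 and LOC100912312.

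A pyrimidine run of at least 8 touching the 25 bases on either side of the start occurred in 24.6% of all promoters. It occurred in 7 of 19 detected members, in 6 of 36 others (16.7%) and in 5 of the 6 snoRNA loci, all but Gas5. A run counted when any part of it lay there. The longest run of LOC102549726 began 24 bases after the start, that of LOC100911177 18 and that of LOC100912041 4 bases after it. In LOC100909675 a run of 14 letters began 23 bases before the start, and in Dancr a run of 16 letters 20 bases before it. None of the runs marked in the sequences shown covers the start itself. Those 5 loci were among the 7 detected members with a run, beside 2810025M15Rikl and Tincr. Both features together occurred in 1.1% of all promoters and in 3 of the 6. The palindrome TGACGTCA, the consensus of cyclic AMP response elements, was in the Gas5, Meg3 and Lnc134 promoters and in 1.91% of all promoters. Median GC content was 54.7% in detected members, 52.3% in the others and 52.3% in all promoters. A match is a run of letters and does not show that a factor binds there.

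Among long noncoding RNAs with names of their own, Oip5-as1 had both probes detected. This transcript, also called Cyrano, is known in mice for driving the decay of the microRNA miR-7. Its probes read 109, 137, 176 and 202 (A_42_P508415) and 69.7, 116, 137 and 269 (A_44_P774197). The level of the first varied by an SD of 0.10 and that of the second by 0.39, the latter lowest on replicate 1.

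Tug1, a lncRNA first described in the rodent retina, was split between its probes. A_43_P10908 read 27.6, 61.6, 68.2 and 130 and was detected on every array. A_44_P219092 read 3.20, 8.17, 5.47 and 35.8 and passed on replicate 4 only. Tincr, known from human skin for its part in epidermal differentiation, read 14.3, 20.0, 19.1 and 48.1, highest on replicate 4.

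Meg3, the maternally expressed transcript of an imprinted cluster that also encodes microRNAs, was near the detection limit with both probes. The detected probe A_44_P1145890 read 14.1, 20.0, 37.1 and 38.8. The 10-spot probe A_44_P1145900 read 11.2, 14.02, 25.5 and 29.8, with 4 and 5 of its spots well above background on replicates 1 and 2 and all 10 on replicates 3 and 4. Both probes were thus lower on replicates 1 and 2 in signal. H19, another imprinted transcript and the source of a microRNA, read 4.26, 2.65, 2.89 and 7.08 and was not detected, and neither was Apeg3, the antisense transcript of the imprinted gene Peg3.

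Among the other named lncRNAs, Cistr passed on replicates 3 and 4, Sert1 on replicate 4, Lnc134 on replicate 3 and Lnc081 on 1 array. Miat, an RNA first tied to myocardial infarction risk in humans, read 4.58, 6.55, 7.64 and 7.48 and was on no array well above background, although its mean passed the limma test (adjusted p = 0.00233). All 3 probes of Pincl and both of Vof16 stayed below detection, as did Dcm5, Lnc004 and Lnc012. Abhd11-as1 read 10.7, 3.11, 10.1 and 8.40. Terc read 3.30, 2.59, 3.93 and 3.25, beside a 95th percentile of negative controls of 3.245, 3.323, 3.066 and 3.598. It was above that percentile on replicates 1 and 3 and below it on replicates 2 and 4.

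The pseudogene class holds records that RefSeq lists as pseudogenes or names as such. Its largest member by number of probes was the record filed under Prrc2c, a symbol known for a gene coding for a large proline-rich protein. RefSeq lists the record here as a transcribed pseudogene. Whether it is a copy or the coding locus itself cannot be told from these data. It gave 5 of the 11 detected probes of the class. All 5 probes were detected. They read 555, 1029, 1190 and 1619 (A_44_P1036481), 1606, 2368, 2604 and 3548 (A_44_P1090480), and 342, 641, 526 and 521 (A_44_P1105804). The others read 1101, 2265, 2345 and 3019 (A_44_P860396) and 524, 487, 564 and 968 (A_64_P219062).

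The Prrc2c probes did not move together. A_44_P1090480 had an SD of 0.06, the lowest of any detected noncoding probe, while A_44_P1105804 had 0.36. After scaling 3 of the 5 were lowest on replicate 1 and 1 was lowest on replicate 4. Such probes could report different transcripts, and which of them they report was not tested.

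Gapdh-ps1 is a copy of the gene for the glycolytic enzyme GAPDH. Its probes read 9237, 13314, 11111 and 8945 (A_44_P1363134) and 673, 447, 671 and 1034 (A_64_P005659). The first was lowest on replicate 4 after scaling, with an SD of 0.52, and lies within 10 rows or columns of a patch of dim spots on that array. All 8 probes of the parent gene Gapdh were detected, at a mean level of 7.99 ± 0.06 (SD, n = 4).

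Selenok-ps2, a copy of an endoplasmic reticulum selenoprotein gene, had 1 probe that read 1179, 1875, 2404 and 3121 and 1 that stayed between 2.02 and 2.94. Cox6c-ps1, a copy of a cytochrome c oxidase subunit gene, had 1 probe at 141, 307, 283 and 307 and 1 at 7.71, 15.8, 10.3 and 18.9, which passed on replicates 2 and 4. Hmgb1-ps2, a copy of the gene for a chromatin protein that is released as an alarm signal, had 1 probe at 33.4, 23.7, 44.2 and 44.5 and 1 between 2.71 and 4.49. In each pair the flag thus parted probes of the same record.

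Lin28c read 65.2, 98.5, 140.5 and 206.1 and was detected, next to a coding neighbour that was not. Aoc2-ps1, Hmox2-ps1 and Rps4x-ps1 passed on 1 array each. Defb16-ps, Dzip1-ps1, LOC682259, Rps7-ps20 and Tnxa-ps1 passed on none. The parents Cox6c, Gapdh, Hmgb1, Hmox2, Rps4x, Rps7 and Selenok were each detected with every probe they had, whether or not the pseudogene probe was. The files hold no probe sequences, so signal from a pseudogene and from its parent cannot be told apart.

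Across the class boundaries, 16 names had more than 1 measured probe. In 5 of them every probe was detected, in 5 none, and 6 were split. Whether such splits are more or less common among noncoding names than over the whole array was not tested. A level under a name with split probes is therefore the level of a probe, not of a gene.

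Noncoding transcripts filed under a coding gene's name gave 1 detected probe of 12, to Smim30l1, which read 1472, 1906, 2267 and 3192. Its level was 4.16 ± 0.07 (SD, n = 4), among the steadiest of the set. RT1-CE6, a gene of the rat major histocompatibility complex, passed on replicates 2 to 4 with 5.82, 12.3, 33.1 and 28.7. RT1-T24-2, of the same complex, passed on 1 array.

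The remaining probes of that class were near background. C7h12orf54 had 1 probe that passed on replicates 3 and 4, and of the 4 Ceacam6 probes, to a cell adhesion gene, 1 passed on 2 arrays. Strit1, known in the mouse heart for a micropeptide that stimulates the calcium pump, read 2.13, 2.89, 2.64 and 2.87. Igh-6l1 and Chchd4l1 were not detected.

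Of the 40 measured probes to uncharacterized records 15 were detected, 5 of them at the snoRNA loci above. Of the rest, 2810025M15Rikl had the largest SD, 0.58, with signals of 3224, 1921, 2501 and 2668, highest on replicate 1. LOC100911627, next to Rsl1d1, read 303, 600, 691 and 855 and was lowest on replicate 1. LOC100365289, whose locus overlaps Ppp2r3b, read 282, 387, 368 and 472 with an SD of 0.15.

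LOC100912312, which overlaps Dennd2d, read 98.5, 123, 126 and 197 with an SD of 0.12. LOC100910973 read 113, 86.9, 116 and 121, and LOC102550394 read 108, 102, 117 and 115. Their unscaled signal differed less between arrays than the brightness of the arrays did, and their levels were highest on replicate 1. LOC690120 was of the same kind, at 20.2, 19.6, 23.3 and 21.8.

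AA926063 read 40.4, 71.6, 72.6 and 86.1. LOC100911370 read 28.2, 42.0, 56.6 and 92.9, and LOC100909970 read 17.1, 16.0, 35.0 and 26.1. These 3 were dim but passed on each array. LOC100910237, LOC100910304 and LOC102549772 passed on 1 or 2 arrays, and 22 probes of the class passed on none.

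Of the unmatched accessions, NR_038113 read 38747, 42657, 51089 and 85970, highest on replicate 4. The probes of NR_027366 read 574, 442, 602 and 754 and 375, 404, 495 and 778. NR_045202 read 173.5, 169.7, 210.4 and 176.8. NR_126572 passed on replicate 4 only, and NR_002706 and NR_027235 on no array. With no annotation for them here, no role is given.

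The number of noncoding probes well above background was 48, 50, 53 and 59 on replicates 1 to 4, or 41.7%, 43.5%, 46.1% and 51.3%, beside 42.8%, 46.3%, 49.2% and 51.9% of all probes. Of the 18 partly detected probes, 11 passed on a single array, which was replicate 4 for 6 of them, 6 passed on 2 arrays, and RT1-CE6 passed on 3. Of the 6 that passed on 2 arrays, 4 passed on replicates 3 and 4 and 2 on replicates 2 and 4.

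Detected noncoding probes varied between arrays with a median SD of 0.31 in log2 units, an interquartile range of 0.20 to 0.41 and extremes of 0.06 and 0.63. Over all detected probes the median SD was 0.25, over curated coding probes 0.24 and over detected predicted noncoding probes 0.28. With each replicate left out in turn the noncoding median lay between 0.23 (without replicate 1) and 0.35 (without replicate 3), and it was 0.24 without replicate 4. In 3 of the 46 probes, to Rn18s, Prrc2c and LOC100911627, 1 array stood apart from the other 3 by Dixon's ratio, beside 8.22% of all detected probes. For the Meg3 probe printed 10 times the SD of the level between arrays was 0.33, and the SD between its spots within an array ran from 0.27 to 0.54. The standard error of the mean of those spots ran from 0.09 to 0.17.

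Genes for proteins that work with noncoding RNAs were mostly detected, in a list drawn up with earlier results of these data known. Of 50 such genes with a measured probe 46 were detected (92%, against 53.1% of all named genes). Detected on every array were all 7 snoRNA-protein genes, all 9 RNase P and MRP protein genes, all 5 signal recognition particle protein genes, all 5 genes of the complex that binds the small nuclear RNA Rn7sk, all 6 paraspeckle genes and all 3 of polycomb repressive complex 2. The exceptions were the Argonaute genes Ago1 and Ago3, on no array, the telomerase catalytic subunit Tert, on 3 arrays, and the decay factor Upf2, on 2.

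The nearest coding neighbour, in RefSeq's gene order, was detected for 15 of 20 detected noncoding genes whose neighbour had a named probe (75%) and for 20 of 40 not detected (50%), beside 53.1% of all named genes. Of 15 macrophage markers 13 were detected, Cd68, Spi1 and Lyz2 among them, while Marco passed on 1 array and Chi3l1 on none. Of 34 markers of other cell types 7 were detected (Foxj1, Col1a2, Dcn, Pecam1, Cdh5, Vwf and Cd4), 7 passed on 1 to 3 arrays and 20 on none, Epcam, Cdh1, Col3a1, Cd3e and Hbb among them. Their part in the noncoding values was not tested. In a bulk sample fewer cells carrying an RNA and less RNA per cell cannot be told apart.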

How the data were processed

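The deposited intensity values are one-colour Agilent spot signals on a linear scale, background-handled by the software and not scaled between arrays, per the file headers, and the software was Agilent Feature Extraction 11.0.1.1, per the submitters' processing notes. Processed signals and the software's yes or no flags were used as deposited, and median signals entered only the normexp alternative. Each array holds 62976 spots, of which 4259 control spots and 440 to 1206 outlier spots were left out. Spots of a probe were averaged as log2 values, and the 75th percentile of an array's non-control probes was subtracted. Signals printed in the text are these probe averages before scaling.

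The files carry accessions but no gene names or descriptions, so unversioned accessions were matched to RefSeq symbols and biotypes of the GRCr8 assembly, which also gave the promoter sequences (the first listed start of a gene), and classes follow symbol and biotype. The array's own annotation is on another build, so no probe position is given. Members, classes and lists were chosen with earlier results of these data known. Values are given for every detected member, and further names are probes that disagree, that passed on 1 to 3 arrays, that lie near the dim patch or that have 1 array apart.

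Detection against negative controls used limma 3.58.1 in R 4.3.3 with the package data.table (version 1.17.8). In simulated data of 45280 probes the limma call recovered 54% of probes set 0.5 log2 units above the threshold and 100% of those set 1, 2 or 4 above, and it called 4.5% of probes set at it. Alternatives were other detection calls, scalings (normexp with an offset of 50 was run on median signals, since no mean signal was given), spots, units of counting and each replicate left out. With 4 arrays of 1 group, the number of arrays limits the precision.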

Additional observations from a re-analysis of the deposited data

Results flagged for a closer look

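In 3 of the 46 detected noncoding probes (6.52%) 1 array stood apart from the other 3, its gap to the nearest array, as a share of the whole range, being above Dixon's 95% critical value for 4 samples. Among all 18229 detected probes 8.22% met that limit, and chance alone gives about 1 in 20. The Rn18s level on replicate 4 was 3.22, against 4.39 to 4.59 on the other arrays (gap 0.859 of the range). The level of Prrc2c by probe A_44_P1036481 was 2.74 on replicate 1 (gap 0.861), and the other Prrc2c probes did not meet the limit. LOC100911627 had a level of 1.86 on replicate 1 (gap 0.834). Gas5, at 0.828, lay just inside the limit.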

How the results depend on the processing

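The count of 46 detected noncoding probes ranged from 35 (1 probe per accession) to 67 (limma) over the other calls, spots and units, and from 46 to 47 with a replicate left out. With the software's looser flag for positive and significant spots, 64 were detected and 13 rather than 51 on no array. Adding the predicted records gave 1076 detected. The gap to curated coding records stayed between -10.8 and -16.4 percentage points, machinery genes between 45 and 49 of those measured, the limma count between 61 and 69, and the median SD between 0.23 and 0.41. Of 414 level values under other settings 286 moved by less than 1 SD. The 128 that moved more arose under the percentile of detected probes (46 of 46) and the median (46), which shift every level of an array by the same amount, and under normexp (36 of 46), where the cause was not tested. Structural probes lowest on replicate 4 numbered 5 of 7 under quantile normalization, and 6 under normexp and under the percentile of detected probes. They numbered 7 under the median and 2 without scaling. Quantile normalization gave the Rn45s probe A_44_P1112711 the same level, 11.442, on every array, so that probe could not be lowest on replicate 4. snoRNA-locus probes lowest on replicate 1 numbered 5 of 7 under each scaling and 7 without one. Over all detected probes the median level on replicate 4 minus that on replicate 1 was -0.08, and -0.19 under the median and 0.07 under the percentile of detected probes. Over the 5 scalings it stayed between -0.33 and -0.83 for structural probes and between 0.25 and 0.65 for snoRNA-locus probes. On replicate 4, 77 probes formed a dim patch, and spots of 5 member probes (Gas5, LOC100909675, Meg3, Gapdh-ps1 and NR_002706) lay in it or within 10 rows or columns. Without the patch the counts stayed at 46 probes detected on all arrays and 51 on none. No paired analysis was possible because the series has a single group.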
